A study of Mus musculus with 6 samples.

Results

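The genes that display peptides to T cells were followed in ovarian tumours of mice expressing the B form of the progesterone receptor, with 3 samples on placebo and 3 on RU486. They are the genes of the major histocompatibility complex (MHC), which in the mouse is called H2, with the helpers that load and control the MHC proteins. Members were taken by gene symbol from the array's annotation: every symbol that begins with H2 and a hyphen, and B2m, Cd74, Ciita, Nlrc5, Tap1, Tap2, Tapbp, Tapbpl, Erap1 and Cd1d1. This gave 55 probes of 51 genes, out of 37932 probes and 21874 named genes. Of the members, 33 probes belong to 30 genes of class I heavy chains, 12 probes to 11 genes of class II, 6 probes to 6 genes of class I peptide supply and assembly, 2 to the transactivators Ciita and Nlrc5, 1 to Cd1d1, and 1 to H2-Ke6, which lies in the complex but codes for an enzyme of steroid and fatty acid metabolism. No probe was left out for low signal.

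All 6 samples came from mice with a Cre allele at the progesterone receptor gene and an LsL receptor transgene, written Pgrcre/+mPgrLsL/+ in the sample labels and Pgrcre/+PgrBLsL/+ in the series' design text, so the placebo tumours held the same alleles as the RU486 tumours. Expression of the transgene therefore follows the cells in which the progesterone receptor gene drives Cre. The tumours measured 0.5 to 1 cm across, and a slow-release pellet of placebo or of RU486 (mifepristone, a steroid that blocks the progesterone and glucocorticoid receptors) was in place for 24 h. Age, strain and H2 haplotype were not stated in the labels, nor was it said whether each array holds a different mouse, so the tests measure the spread between these samples. Whole tumour RNA was labelled with Cy3. In such bulk RNA, fewer cells of a type and less RNA per cell cannot be told apart.

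Class I molecules are displayed by nearly all nucleated cells: a heavy chain, made in the mouse by the classical genes H2-K1 and H2-D1 and by many non-classical Q, T and M genes, pairs with β2-microglobulin and carries peptides from the cytosol, which the TAP transporter brings into the endoplasmic reticulum. Class II molecules are pairs of α and β chains made mainly by dendritic cells, macrophages and B cells. The invariant chain Cd74 guards their groove until the DM chains exchange it for a peptide from the endosome. Nlrc5 is the transactivator of class I genes and Ciita that of class II genes, and interferon-γ induces both systems.

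Each deposited value is a score: the scores of 1 probe over the 6 arrays have mean 0 and SD 1. A score says on which arrays a probe was bright relative to itself. It gives neither a level nor a fold change, and high scores were read as bright spots, since no source used here states the direction. Differences are given as mean score with RU486 minus mean score with placebo, in SDs of the probe. Such a difference cannot pass 1.83 in size. Because scores have no zero, whether ovarian or tumour cell markers are present or absent could not be checked. The median score of all probes ranged from -0.384 to 0.212 between arrays, and 0 pairs of arrays held identical values.

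No member passed the test over all probes. With limma's ordinary statistic and Benjamini-Hochberg adjustment, 0 of the 55 member probes had an adjusted p under 0.05, against 2 of 37932 probes (0.00527%), and the smallest adjusted p of a member was 0.293, for B2m. At an unadjusted p under 0.05 there were 2 lower members, B2m and H2-M3, and 2 higher ones, H2-M10.1 and H2-Ke6. Both counts are 3.64% of the members, below the shares over all probes of 6.39% lower and 5.32% higher. The 3 RU486 arrays lay below the 3 placebo arrays in 2 member probes and above them in 4, which is 3.64% and 7.27%, against 10.0% and 12.0% of all probes. Most members were lower with RU486 without such a separation: 37 of 55 differences were negative (67.3%, against 50.1% of all probes), with a median of -0.54 against -0.01 for all probes.

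Much of that lean rested on 1 array. Placebo array 3 held the highest score in 33 of the 55 member probes (60%), against 22.3% of all probes. The placebo arrays spread more widely than the RU486 arrays in 37 of 55 members (67.3%, against 41.7% of all probes). Without placebo array 3, 24 members were lower and 31 higher, with a median of 0.22, close to the median of all probes in that comparison, 0.24.

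**Figure D1:**
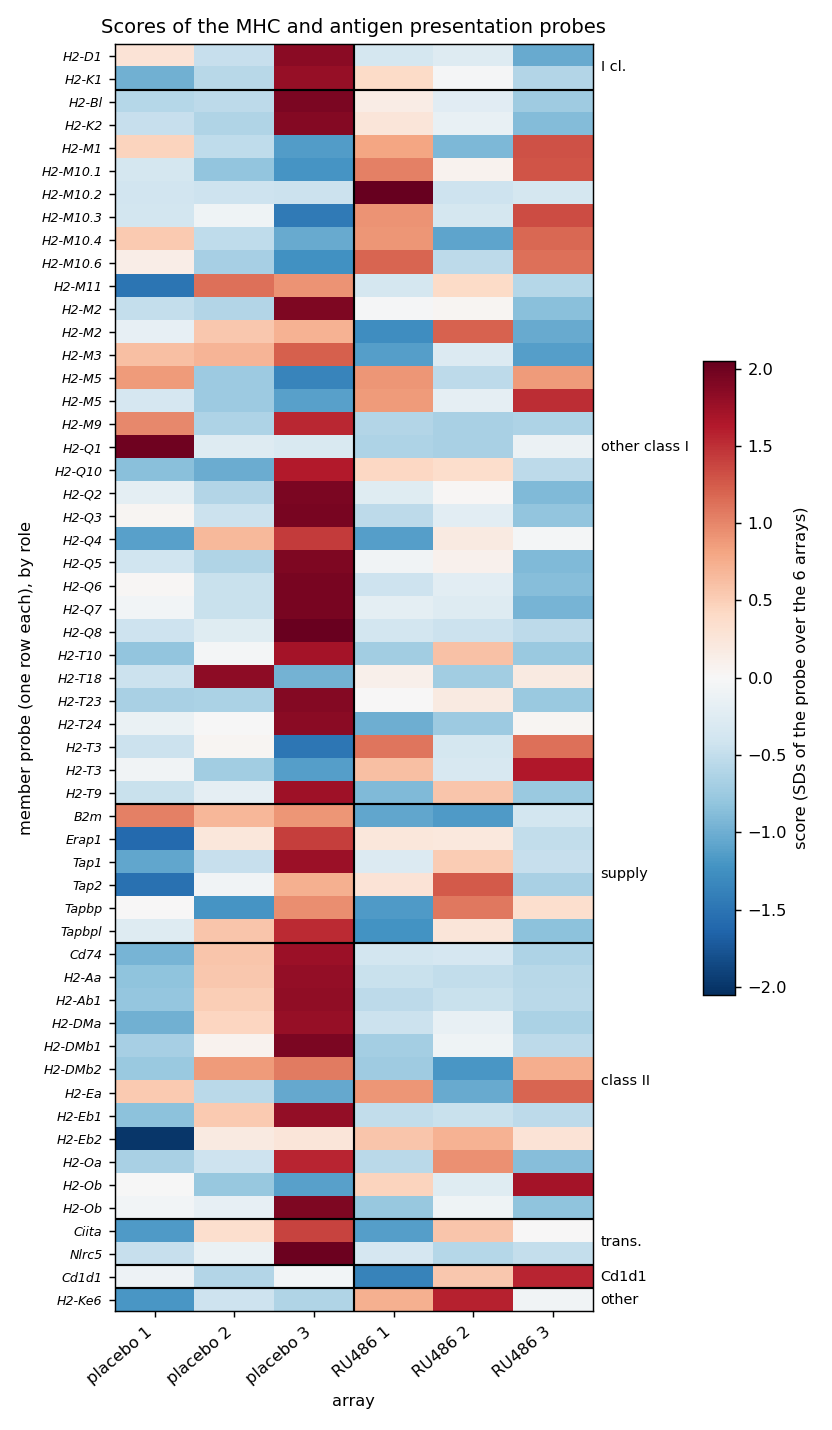
Score of each member probe (rows, grouped by role) on each array (columns), in SDs of the probe over the 6 arrays; red is above and blue below the probe's own mean. Placebo array 3 holds the highest score in 33 of 55 rows, and a block of H2-M1, H2-M5, H2-M10 and H2-T3 rows runs the other way.

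The main class II chains had nearly the same profile over the 6 arrays, without passing the test. The promoter windows of 3 of them are shown, since they carry that profile, beside that of H2-Eb2, a class II β chain gene that did not share it, from 150 bases before the transcription start in RefSeq's mouse assembly GRCm38.p6. Capitals mark the core of the Y box, ATTGG or CCAAT on the other strand, and of the X2 box, TGACG, both textbook elements of MHC promoters.
H2-Aa (chr17:34287824-34287973, minus strand): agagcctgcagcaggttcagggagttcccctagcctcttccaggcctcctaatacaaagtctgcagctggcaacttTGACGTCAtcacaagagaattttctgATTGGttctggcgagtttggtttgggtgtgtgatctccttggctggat
H2-Eb1 (chr17:34305717-34305866, plus strand): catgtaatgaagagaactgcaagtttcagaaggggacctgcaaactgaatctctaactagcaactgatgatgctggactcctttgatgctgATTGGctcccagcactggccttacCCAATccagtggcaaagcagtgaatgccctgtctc
H2-DMb1 (chr17:34153041-34153190, plus strand): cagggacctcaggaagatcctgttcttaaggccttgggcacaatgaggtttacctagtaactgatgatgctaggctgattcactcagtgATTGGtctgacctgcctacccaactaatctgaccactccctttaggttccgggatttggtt
H2-Eb2 (chr17:34325525-34325674, plus strand): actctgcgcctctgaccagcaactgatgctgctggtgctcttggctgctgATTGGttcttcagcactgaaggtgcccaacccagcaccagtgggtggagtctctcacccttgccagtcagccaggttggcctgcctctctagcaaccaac
The Y box core was found on either strand in the 300-base windows of 7 of 8 matched class II genes, against 37.9% of all 27025 promoters, and the X2 core in 1 of 8, H2-Aa, against 21.0%. The H2-Eb2 window holds the Y box core too, so these letters do not separate it from the other 3. In H2-Aa the X2 core was matched on both strands at overlapping positions. Only the letters TGACG were searched for X2, so other forms, such as tgatgatg in the H2-Eb1 and H2-DMb1 windows, were not counted. The X2 count therefore does not show that a promoter lacks an X2 box.

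H2-Aa, which codes for the α chain of the I-A molecule, had scores of -0.820, 0.547 and 1.80 on placebo arrays 1 to 3 and of -0.453, -0.500 and -0.574 on RU486 arrays 1 to 3. H2-Ab1, its β chain partner, had -0.796, 0.505 and 1.82 with placebo and -0.530, -0.456 and -0.547 with RU486. The 3 placebo tumours were thus spread widely while the 3 RU486 tumours lay together between placebo arrays 1 and 2, so the groups overlapped. The differences were -1.02 (SE 0.758, limma adjusted p = 0.658) for H2-Aa and -1.02 (SE 0.757, limma adjusted p = 0.657) for H2-Ab1.

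The same order was found in the other chains of this set. H2-Eb1, the β chain of the I-E molecule, had -0.848, 0.536 and 1.80 with placebo and -0.501, -0.458 and -0.532 with RU486, a difference of -0.99 (SE 0.766). Cd74, the invariant chain gene, had -0.956, 0.566 and 1.76 with placebo and -0.383, -0.350 and -0.636 with RU486, a difference of -0.91 (SE 0.791). In both genes placebo array 1 was the lowest of the 6 arrays and placebo array 3 the highest.

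The DM chains catalyse peptide loading of class II. H2-DMa, the DM α chain gene, had -0.980, 0.437 and 1.79 with placebo and -0.442, -0.149 and -0.656 with RU486, a difference of -0.83 (SE 0.813). H2-DMb1, a DM β chain gene, had -0.676, 0.0654 and 1.94 with placebo and -0.697, -0.0879 and -0.541 with RU486, a difference of -0.88 (SE 0.799). H2-DMb2, the second β chain gene, had -0.767, 0.875 and 1.06 with placebo and -0.725, -1.20 and 0.752 with RU486, a difference of -0.78 (SE 0.826). H2-DMb2 shared the high placebo array 3 but not the tight RU486 group, since RU486 array 3 stood close to the high placebo arrays.

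The remaining class II genes did not follow the set. H2-Eb2 had -2.00, 0.186 and 0.242 with placebo and 0.576, 0.706 and 0.287 with RU486, so that all RU486 arrays lay above all placebo arrays, by a small gap, and placebo array 1 stood far below the rest. Its difference was 1.05 (SE 0.748, limma adjusted p = 0.644). H2-Ea, the gene of the I-E α chain, which carries a deletion in C57BL mice and is a transcribed pseudogene in RefSeq, had 0.534, -0.546 and -1.05 with placebo and 0.911, -1.04 and 1.19 with RU486, a difference of 0.71 (SE 0.842).

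The DO chains hold DM in check. H2-Oa, the DO α chain gene, had -0.669, -0.421 and 1.56 with placebo and -0.546, 0.940 and -0.866 with RU486, a difference of -0.31 (SE 0.899). The 2 probes of the β chain gene H2-Ob disagreed. Probe A_66_P130916 had -0.0587, -0.169 and 1.92 with placebo and -0.781, -0.0809 and -0.826 with RU486 (difference -1.13, SE 0.719), whereas probe A_55_P2057931 had -0.00783, -0.784 and -1.11 with placebo and 0.450, -0.252 and 1.70 with RU486 (difference 1.27, SE 0.658). The first probe runs with the classical class II set in having its peak on placebo array 3 and the second has its low there, so no direction can be given for H2-Ob.

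As a list, class II had a median difference of -0.86 over 12 probes, 9 of them lower and 3 higher. At an unadjusted p under 0.05, 0 passed, against 6.39% lower and 5.32% higher of all probes. The mean class II score was -0.670, 0.150 and 1.13 on placebo arrays 1 to 3 and -0.260, -0.243 and -0.104 on RU486 arrays 1 to 3. Leaving out placebo array 3 gave a median of -0.20 with 8 probes lower, against a median of 0.24 for all probes. Leaving out placebo array 1 gave -1.44 with 9 lower, against -0.24 for all probes. Ciita, the transactivator, had -1.17, 0.345 and 1.38 with placebo and -1.14, 0.574 and 0.00493 with RU486, a difference of -0.37 (SE 0.894). Its placebo scores were ordered as in the class II set, but its RU486 scores were spread.

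**Figure D2:**
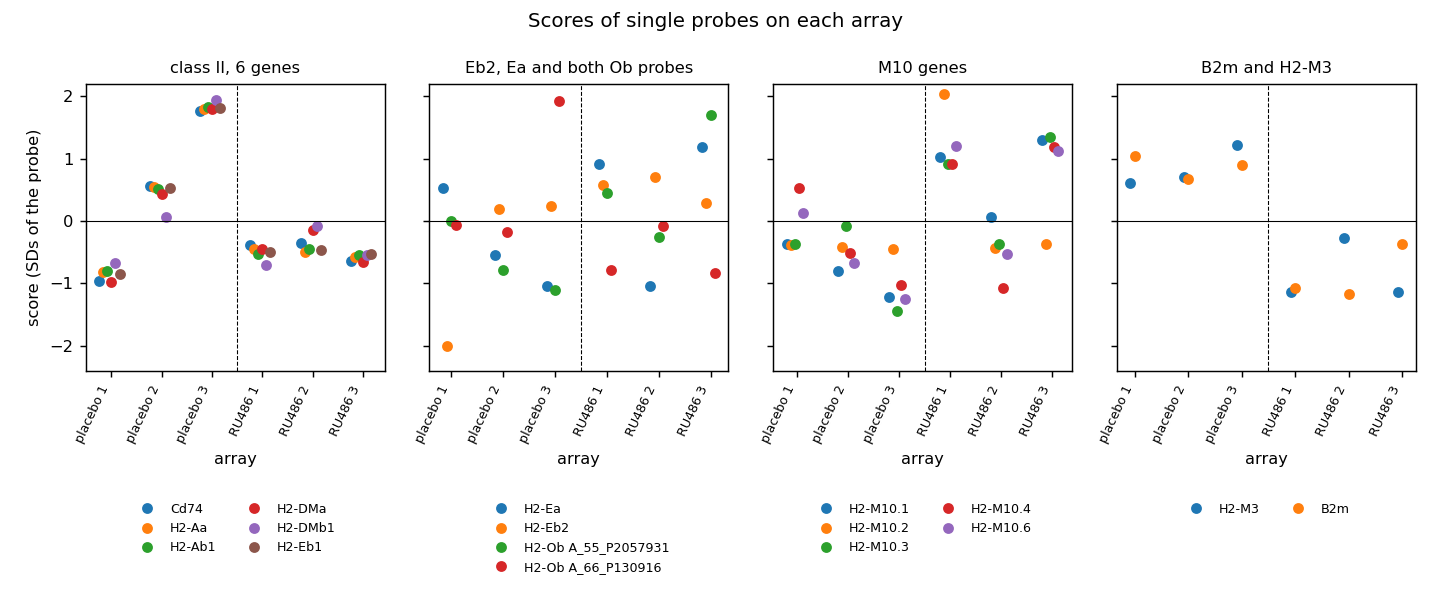
Scores of single probes (points, in SDs of the probe) on each array, for 6 class II genes that share a profile, the class II genes H2-Eb2, H2-Ea and H2-Ob, the 5 M10 genes, and the pair B2m and H2-M3. The 6 class II genes peak on placebo array 3, 4 of the 5 M10 genes have their low there, and for B2m and H2-M3 the 2 treatments do not overlap.

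The class I families differed in their profiles, as described without a test of family against family. Promoter windows are shown for H2-K1, as the classical heavy chain, and for B2m and H2-M3, the 2 members whose RU486 scores all lay below the placebo scores at an unadjusted p under 0.05. They come from the same assembly and the same 150 bases. Beside the Y box and X2 cores, capitals mark the κB site of the class I enhancer A, GGGANTCCC, and the core of the interferon-stimulated element, GAAANNGAA, in which N is any base. Both strands were searched.
H2-K1 (chr17:34000348-34000497, minus strand): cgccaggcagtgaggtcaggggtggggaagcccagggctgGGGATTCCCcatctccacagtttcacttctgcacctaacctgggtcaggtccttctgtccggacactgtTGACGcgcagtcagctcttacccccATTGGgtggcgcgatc
B2m (chr2:122147537-122147686, plus strand): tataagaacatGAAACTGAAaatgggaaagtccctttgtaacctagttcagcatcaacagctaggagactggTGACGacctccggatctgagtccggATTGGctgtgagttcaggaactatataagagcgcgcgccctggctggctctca
H2-M3 (chr17:37270084-37270233, plus strand): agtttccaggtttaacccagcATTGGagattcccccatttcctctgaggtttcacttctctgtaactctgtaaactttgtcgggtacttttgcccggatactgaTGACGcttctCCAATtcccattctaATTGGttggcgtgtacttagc
Of 20 matched class I heavy chain genes, 17 held the Y box core in the 300-base window (85.0%, against 37.9% of all promoters), 9 the X2 core (45.0%, against 21.0%), 4 the κB site (20.0%, against 0.777%) and 1 the interferon core (5%, against 8.57%). The 4 genes with the κB site were H2-K1, H2-D1, H2-Q6 and H2-Q7, and B2m held the interferon core. For the κB site only the letters GGGANTCCC were searched, so other forms were not counted and the count does not show that a promoter lacks the site. Only the letters GAAANNGAA were searched for the interferon element. Forms with another spacing, such as tttcacttc in the H2-K1 and H2-M3 windows, were not counted. The interferon count therefore does not show that a promoter lacks the element, nor that class I heavy chain genes hold it less often than all promoters. In all, 33 members had a promoter window that was used here.

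B2m, the gene of the light chain that every class I heavy chain needs, parted the groups most clearly. Its scores were 1.04, 0.678 and 0.898 with placebo and -1.07, -1.17 and -0.376 with RU486. All 3 RU486 tumours were below all 3 placebo tumours, with a gap wider than the spread within either group. The means were 0.872 ± 0.182 and -0.872 ± 0.432 (SD, n = 3 each), a difference of -1.74 (SE 0.271), and it did not pass over all probes (limma adjusted p = 0.293). Over the comparisons that left out 1 array, its difference ranged from -1.99 to -1.60.

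H2-M3, a non-classical heavy chain gene whose product presents formylated bacterial and mitochondrial peptides, was similar. It had 0.609, 0.704 and 1.22 with placebo and -1.13, -0.276 and -1.13 with RU486. Again no RU486 array reached a placebo array, and the difference was -1.69 (SE 0.343, limma adjusted p = 0.340). Placebo array 3 was the highest, but the other placebo arrays were also above all RU486 arrays, unlike in most of the class I family.

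The classical heavy chain genes showed no such separation. H2-K1 had -0.989, -0.567 and 1.78 with placebo and 0.400, -0.0297 and -0.598 with RU486, a difference of -0.15 (SE 0.910). H2-D1 had 0.279, -0.466 and 1.85 with placebo and -0.362, -0.268 and -1.04 with RU486, a difference of -1.11 (SE 0.725, limma adjusted p = 0.607). Both were highest on placebo array 3, and without that array the difference of H2-K1 turned to 0.70 and that of H2-D1 was -0.46.

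The Q genes, non-classical heavy chains that include the Qa-2 antigens, carried the same peak. Of 9 Q probes, 8 were highest on placebo array 3, and the mean score of the family was -0.111, -0.383 and 1.61 on placebo arrays 1 to 3 and -0.356, -0.126 and -0.630 on RU486 arrays 1 to 3. Differences ranged from -1.04 to 0.17, with a median of -0.90, 8 of 9 lower, and the groups overlapped in all 9. The exception to the peak was H2-Q1, whose highest score, 1.99, was on placebo array 1.

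Q, K and D genes are close relatives in sequence, and how far their probes read each other's transcripts was not tested. Of 7 T probes, 4 were highest on placebo array 3, among them H2-T23, which codes for the Qa-1 ligand of natural killer cell receptors. Its difference was -0.38. Both probes of H2-T3, the gene of the thymus leukaemia antigen known from intestinal epithelium, ran the other way, with differences of 1.24 and 1.29 and their lows, -1.48 and -1.14, on placebo array 3.

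The M genes were mixed: of 13 probes, 8 were higher with RU486 and 5 lower (38.5%). Beside H2-M3, the lower ones were H2-M9 at -1.27, H2-M11 at -0.37 and both H2-M2 probes at -0.55 and -0.73. The M10 genes, known for expression in the vomeronasal organ, had positive differences in 5 of 5 probes, from 0.67 to 1.59, while 50.1% of all probes had negative ones. For H2-M10.2 the difference rested on RU486 array 1, at 2.04, since its scores on the other arrays lay between -0.445 and -0.361. H2-M10.1 had -0.368, -0.806 and -1.22 with placebo and 1.03, 0.0658 and 1.29 with RU486, so the groups were apart, and the difference of 1.59 (SE 0.446) did not pass (limma adjusted p = 0.396). The family was uneven among the RU486 tumours: mean M10 scores were 1.22, -0.468 and 0.916 on RU486 arrays 1 to 3, and -0.0926, -0.499 and -1.07 on placebo arrays 1 to 3.

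This is the reverse of the class II and Q profile on placebo array 3, and H2-M1, both H2-M5 probes, both H2-T3 probes, H2-T18, H2-Ea and probe A_55_P2057931 of H2-Ob had their lows on that array too. In all, 12 of the 55 members were lowest on placebo array 3 (21.8%, against 20.7% of all probes). One probe of H2-M5 had its 3 RU486 scores above its 3 placebo scores (difference 1.47, SE 0.543) and the other did not (0.82, SE 0.816). Brightness cannot be recovered from scores, so it is unknown whether these probes were above background.

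Among the genes of peptide supply, all but B2m overlapped between the groups. Tap1, one subunit of the peptide transporter, had -1.06, -0.470 and 1.76 with placebo and -0.276, 0.520 and -0.473 with RU486, a difference of -0.15 (SE 0.910). Tap2, the other subunit, had -1.54, -0.0797 and 0.732 with placebo and 0.282, 1.26 and -0.658 with RU486, a difference of 0.59 (SE 0.864). Placebo array 1 was the lowest array for both, as for 6 of the 12 class II probes.

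Tapbp, the gene of tapasin, which bridges class I and TAP, had 0.00510, -1.21 and 0.947 with placebo and -1.17, 1.07 and 0.351 with RU486, a difference of 0.17 (SE 0.909). Tapbpl, its relative that edits the bound peptide, had -0.262, 0.566 and 1.53 with placebo and -1.23, 0.243 and -0.845 with RU486, a difference of -1.22 (SE 0.679). Erap1, which trims peptides in the endoplasmic reticulum, had -1.60, 0.228 and 1.43 with placebo and 0.228, 0.221 and -0.501 with RU486, a difference of -0.03 (SE 0.913). Tapbpl had the largest difference of these 3 genes, and its RU486 array 2 lay above placebo array 1.

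Nlrc5, the class I transactivator, had -0.473, -0.133 and 2.02 with placebo and -0.340, -0.590 and -0.481 with RU486, a difference of -0.94 (SE 0.783). A score of 2.02 is close to the highest value that 1 of 6 arrays can reach, 2.04, so placebo array 3 stood alone. Cd1d1, which presents lipids to natural killer T cells, had -0.0962, -0.603 and -0.0516 with placebo and -1.37, 0.556 and 1.56 with RU486, a difference of 0.50 (SE 0.878). For Cd1d1 the RU486 tumours spanned the wider range. H2-Ke6 had -1.19, -0.422 and -0.622 with placebo and 0.727, 1.57 and -0.0645 with RU486, with separate groups and a difference of 1.49 (SE 0.527, limma adjusted p = 0.396).

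Class I heavy chains and class II both leaned to lower scores with RU486, class II by more. The median differences were -0.54 over 33 class I probes (22 lower, 11 higher) and -0.86 over 12 class II probes (9 lower, 3 higher), against -0.01 over all probes. The mean class I score was -0.176, -0.264 and 0.692 on placebo arrays 1 to 3 and 0.0531, -0.179 and -0.127 on RU486 arrays 1 to 3. Class II minus class I was -0.494, 0.414 and 0.436 on the placebo arrays and -0.313, -0.0648 and 0.0222 on the RU486 arrays, so the gap between the classes overlapped between the treatments. The difference between the medians of the classes was -0.31, and it was not tested, since the members were chosen with results known.

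With placebo array 3 left out the class I median turned to 0.22, against 0.24 for all probes, with 13 of 33 class I probes lower. The class I median was -0.93 when placebo array 1 was dropped, against -0.24 for all probes. It was -0.28 when RU486 array 3 was dropped, against 0.01 for all probes. With array weights the class I median was -0.15, against -0.17 for all probes, so no class I lean beyond all probes was left there. The class II median was -0.92 in that setting. Placebo array 2 had a weight of 4.81 there, and the other arrays had weights from 0.355 to 1.28. The classes differed on placebo array 1, where class II had its lowest mean and class I did not.

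**Figure D3:**
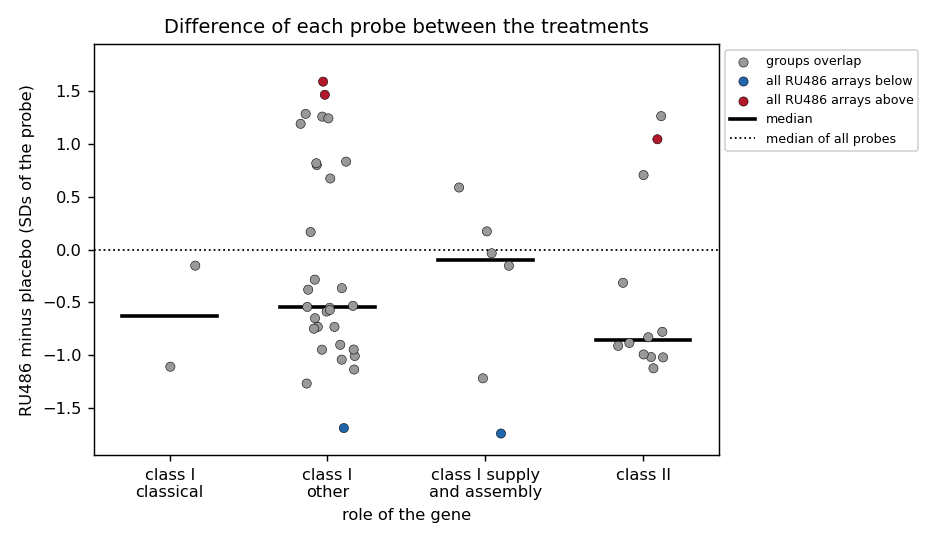
RU486 minus placebo of each probe (points, in SDs of the probe) by role, with the median of each role as a bar and the median of all probes as a dotted line. Grey points have overlapping groups, the 2 blue points are B2m and H2-M3, whose RU486 scores all lay below the placebo scores, and the red points are H2-M10.1, H2-M5 and H2-Eb2, where they lay above. H2-Ke6, also above, is not drawn, nor are Ciita, Nlrc5 and Cd1d1.

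**Figure D4:**
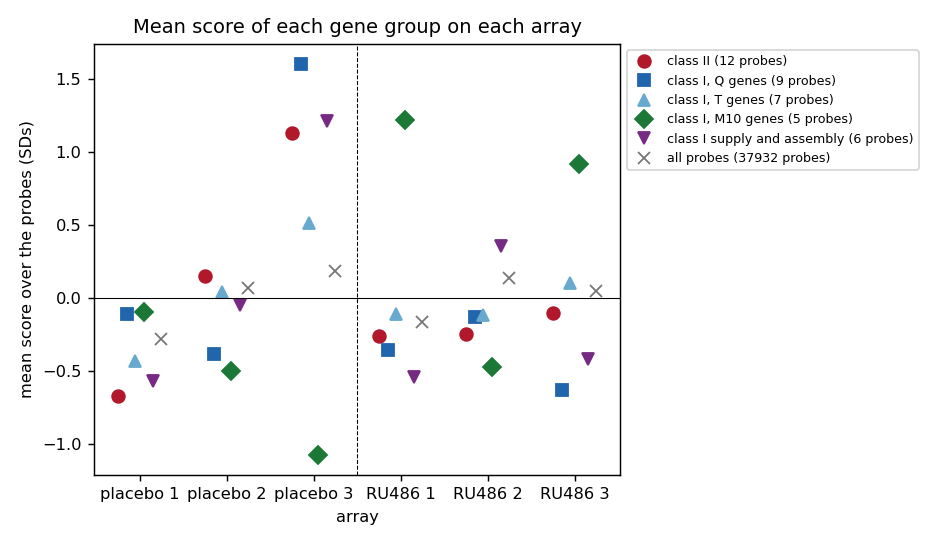
Mean score of each gene group (points, in SDs) on each array, beside the mean over all 37932 probes. Class II, Q genes and the supply genes peak on placebo array 3, at 1.13, 1.61 and 1.21, where the M10 genes have their low of -1.07.

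Other genes of the pathway came from lists of its known components. Of 8 probes for the 6 genes of the immunoproteasome and its regulator, which cut peptides for class I, 0 passed at an unadjusted p under 0.05 in either direction. The shares over all probes were 6.39% lower and 5.32% higher. The list mean was 1.07 on placebo array 3. The probes of smallest unadjusted p were of Psme2, at -1.31 (SE 0.636), and of Psmb9, at 0.87 (SE 0.801) and -0.64 (SE 0.855). Psmb9 thus had probes of both signs.

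The 6 genes of loading and trafficking in the endoplasmic reticulum leaned the most. Each of the 6 probes had a negative difference, the median being -1.52, and 4 were lower at an unadjusted p under 0.05 (66.7%, against 6.39% of all probes). In 5 the RU486 scores all lay below the placebo scores (83.3%, against 10.0% of all probes), and 0 passed over all probes. Sec61a1, a channel subunit for proteins entering that compartment, was at -1.66 (SE 0.376), Calr, the chaperone calreticulin that holds class I while it loads, at -1.59 (SE 0.447), and Pdia3, which joins calreticulin in the loading complex, at -1.57 (SE 0.468). Limma's adjusted p was 0.372 for Sec61a1 and 0.396 for the other two. Calr had its highest score, 1.57, on placebo array 1 and its lowest, -1.18, on RU486 array 1. The list mean was 1.37 on placebo array 1 and 0.512 on placebo array 3, where most heavy chain probes had their peak.

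Costimulation and its inhibition act beside the MHC when T cells meet antigen. Of 8 probes for such genes, with Cd274 and Pdcd1lg2 as inhibitory ones, 3 were lower at an unadjusted p under 0.05 (37.5%, against 6.39% of all probes) and 0 higher (against 5.32%). Both Icosl probes were lower, at -1.79 (SE 0.176) and -1.54 (SE 0.487), and Cd40 was at -1.50 (SE 0.522). Icosl had its smallest adjusted p at 0.205 in limma, so neither gene passed over all probes. Both Icosl probes and the Cd40 probe had RU486 scores all below the placebo scores (37.5% of the list, against 10.0% of all probes).

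Upstream, 16 of 17 listed genes of interferon signalling and of the factors that bind MHC promoters were measured, with 18 probes. In this list 0 were lower and 1 was higher at an unadjusted p under 0.05, which is 5.56% and near the 5.32% of all probes. It was a probe of Creb1, a factor that can bind the X2 box, at 1.64 (SE 0.397, limma adjusted p = 0.396), while its other probe was at -0.88 (SE 0.799). Irf8, a factor of myeloid and B cells, was at -1.39 (SE 0.589) and Jak2, a kinase of the interferon-γ receptor, at -1.37 (SE 0.605), with RU486 scores all below the placebo scores in both (11.1% of the list, against 10.0% of all probes). Among 8 genes of the class II compartment and 8 class I-like genes outside the complex, 0 probes passed at an unadjusted p under 0.05 (against 6.39% lower and 5.32% higher of all probes). Ifi30, a thiol reductase that prepares antigens, was at -1.10 (SE 0.728), Cd63 at -1.04 (SE 0.752) and Marchf1, a ubiquitin ligase that removes class II from the surface, at -0.66 (SE 0.850). The class I-like leaders were Ulbp1, a ligand of natural killer cells, at -1.24 (SE 0.671) and -1.22 (SE 0.680) for its probes, and Hfe, which controls iron uptake, at -0.88 (SE 0.800).

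Several marker lists of immune cells, though not all, had a high mean on placebo array 3. The mean over 6 of 6 genes found in all leukocytes was -0.354, 0.107 and 1.19 on placebo arrays 1 to 3 and -0.491, 0.614 and -1.07 on RU486 arrays 1 to 3. All 6 differences were negative, against 50.1% of all probes. At an unadjusted p under 0.05, 0 passed, against 6.39% lower and 5.32% higher of all probes. The macrophage and monocyte mean (10 of 10 genes) was -0.348, 0.108 and 0.862 with placebo and -0.682, 1.06 and -1.0 with RU486. The class II set shared with these lists the order of the 3 placebo arrays but not the high RU486 array 2.

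The dendritic cell mean (9 of 9 genes) was -0.323, -0.0489 and 0.618 with placebo and -0.332, 0.532 and -0.445 with RU486. The B cell mean (6 of 7 genes) was 0.0131, 0.614 and 0.615 with placebo and -0.558, -0.152 and -0.532 with RU486. The neutrophil mean (6 of 6 genes) was 0.418, 0.102 and 0.0848 with placebo and 0.0506, 0.0116 and -0.667 with RU486. All RU486 arrays lay below all placebo arrays in the B cell mean. For neutrophils, whose probes were 4 lower and 3 higher, that held for the mean over genes but not for the mean over probes. Placebo array 3 was the lowest placebo array in the neutrophil and natural killer cell means. The T cell mean (7 of 8 genes) ranged from 0.0325 to 0.461 with placebo and from -0.722 to 0.280 with RU486, and the natural killer cell mean (6 of 6 genes) from -0.0124 to 0.304 and from -0.324 to -0.00805. The fibroblast mean (6 of 6 genes) was 1.09 on placebo array 3 and 1.17 on RU486 array 2, and the epithelial mean (7 of 7 genes) was 0.831 on placebo array 3. The granulosa and stromal mean (7 of 7 genes) ranged from -0.796 to 0.574 with placebo and from -0.925 to 0.922 with RU486, and the endothelial mean (6 of 6 genes) from -0.190 to 0.907 and from -1.13 to 0.345. The part of these cell types in the MHC scores was not tested.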

How the data were processed

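RNA of 6 tumour samples was labelled with Cy3 and measured on single-colour mouse arrays, 1 per sample, whose probe names are of Agilent's form. The deposited value is a score per probe and array, which the values show to be centred on 0 and scaled to an SD of 1 over the 6 arrays. Partek is named in the submitters' processing notes, and no source used here gives the steps before the scaling. Levels, fold changes and a filter on dim probes cannot be had from such scores. Probes were named through the platform annotation, which gives 1 symbol to 24903 probes, none to 13029 and several to 0.

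RU486 was compared with placebo by limma 3.58.1 in R 4.3.3, over all 37932 probes, with the ordinary statistic (4 residual degrees of freedom), two-sided, with Benjamini-Hochberg adjustment and a threshold of 0.05. The fit was tested on simulated data. Alternatives were median centring, quantile normalization, array weights, the replicate block, moderated statistics, gene means and leaving out each array. Members and lists were chosen with earlier results of these data known. The genes named were the members by role and, in each other list, up to 3 probes of smallest unadjusted p.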

Additional observations from a re-analysis of the deposited data

How the results depend on the processing

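Over all probes, 2 passed with limma's ordinary statistic; 0 passed after array median centring, quantile normalization, the replicate block or moderated statistics, 1 with gene means, 8 with array weights, and 1 to 4 when 1 array was left out. Members at an unadjusted p under 0.05 numbered 4, against 8 with array weights, 1 with the replicate block and 2 to 7 with 1 array left out. Members with separate groups numbered 6, against 7 to 23 with 1 array left out, where separation is easier because a group holds 2 arrays. The class I median of -0.54 ranged from -0.93 (without placebo array 1) to 0.22 (without placebo array 3), and the class II median from -1.44 to -0.20 without the same arrays. Median centring moved the median of all probes to 0.12, with class I at -0.42, class II at -0.74 and the supply genes at 0.03.

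Of 26 named probes, 17 kept their sign in all 12 settings and 9 did not. Erap1 was at 0.087 after median centring, H2-K1 at 0.21 with array weights, and H2-Ob probe A_66_P130916 at 0.070 with gene means, since that averages it with the other H2-Ob probe. With 1 array left out, differences ranged from -0.032 to 1.10 for Tap2, from -0.84 to 0.67 for Erap1, from -0.39 to 0.80 for Tapbp, from -0.68 to 0.70 for H2-K1, from -0.72 to 0.69 for Tap1, from -0.86 to 0.39 for H2-Oa, from -1.05 to 0.23 for Ciita and from -0.16 to 1.31 for Cd1d1. The cause was not tested. The smallest limma adjusted p of a named probe in any setting was 0.0849. The labels do not say whether the replicate numbers pair the samples. Same-numbered arrays deviated from their group means with correlations of 0.266, 0.077 and -0.239. These values cannot settle a pairing, because deviations from a mean of 3 arrays constrain each other. Scores limit what can be read: a dim probe and a bright one look alike, and 3 arrays a group limit the precision.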
